A study of Mus musculus with 12 samples.

Results

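The genes described here encode the enzymes and transporters that trim and build asparagine-linked sugar chains (N-glycans) and cap them with sialic acid. The list names 37 genes, and 36 of them had a probe set that the array's annotation assigns to that gene alone, among 30142 such genes on the array; Mgat4b shares its probe set with another gene and has no value. Where a gene had several probe sets, the brightest stood for it. The list was drawn up by function, but with earlier results of these data known, among them the rise of Man2a1.

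Arrays were made from megakaryocytes, from which platelets are shed, grown from hematopoietic stem cells of male C57BL/6 mice. The stem cells spent 3 days with thrombopoietin at 100 ng/ml and a night in medium with 10% charcoal-stripped serum, and day 4 megakaryocytes were purified on an albumin gradient. Each of 6 cultures was then divided between 6 h of 100 nM dexamethasone, a synthetic glucocorticoid, and 6 h of its vehicle, which gave 6 dexamethasone arrays and 6 vehicle arrays with matching culture numbers, written 1 to 6 here. No genotype beyond the strain is named, and the labels do not say whether cultures came from different mice. The p-values therefore weigh the change with treatment against how far that change varied between these cultures. The model for single genes also draws each gene's variance toward a value shared by all genes tested. Its p-values thus do not rest on the cultures' spread for that gene alone. Of the megakaryocyte markers, 13 of 13 measured lay above the middle of the negative control probe sets on all arrays, with Itga2b at 15.51 ± 0.07 in dexamethasone and 15.37 ± 0.05 in vehicle (log2, SD, n = 6 each). They moved in both directions: Tubb1, a platelet tubulin, fell by 1.14 and Gp9 and Gata1 rose by 0.44 and 0.29, and 10 did not pass the threshold used below. That threshold was passed by 12.0% of all genes tested.

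N-glycans are attached to proteins in the endoplasmic reticulum as one preformed, glucose- and mannose-rich chain. Glucosidases and mannosidases trim it, and in the Golgi branching enzymes add N-acetylglucosamine, after which fucose, galactose and sialic acid are attached. On platelets this cap matters for lifespan: glycoproteins that lose sialic acid expose galactose, which liver lectins recognise and clear. Several listed enzymes work mainly on other substrates, such as St3gal1 on O-glycans and St3gal5, B4galt5 and B4galt6 on glycolipids.

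After dexamethasone both Golgi alpha-mannosidases II rose, Man2a1 by 2.85 and Man2a2 by 1.03 on the log2 scale, and few other steps of the pathway moved. The sialyltransferase St3gal2 rose by 0.64 and its relative St3gal5 fell by 0.45. Smaller changes were a rise of the GDP-fucose transporter Slc35c1 by 0.24 and a fall of the branching enzyme Mgat1 by 0.18. Of 35 members tested, 4 rose, 2 fell and 29 did not pass the threshold, an adjusted p under 0.05 in limma's moderated test over all 24265 genes tested. The share past it was 17.1% of members, where 12.0% of all genes tested passed (7.39% higher and 4.56% lower), so the count itself lies near that of genes at large. The balance of directions depended on scaling: after quantile normalization 3 members were higher and 5 lower, beside 1417 and 1738 of all genes, and after centring arrays on their medians 4 members were higher and 1 lower, beside 1718 and 726. A change of at least 1 log2 unit was seen in 112 of the 24265 genes tested and in 2 of the 35 members. These 2 are Man2a1, whose rise was known beforehand, and Man2a2. The members' median change was 0.02, beside -0.01 over all genes, and their median absolute change was 0.09, beside 0.08. The remaining member, the Golgi mannosidase Man1c1, was too dim to be tested.

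**Figure D1:**
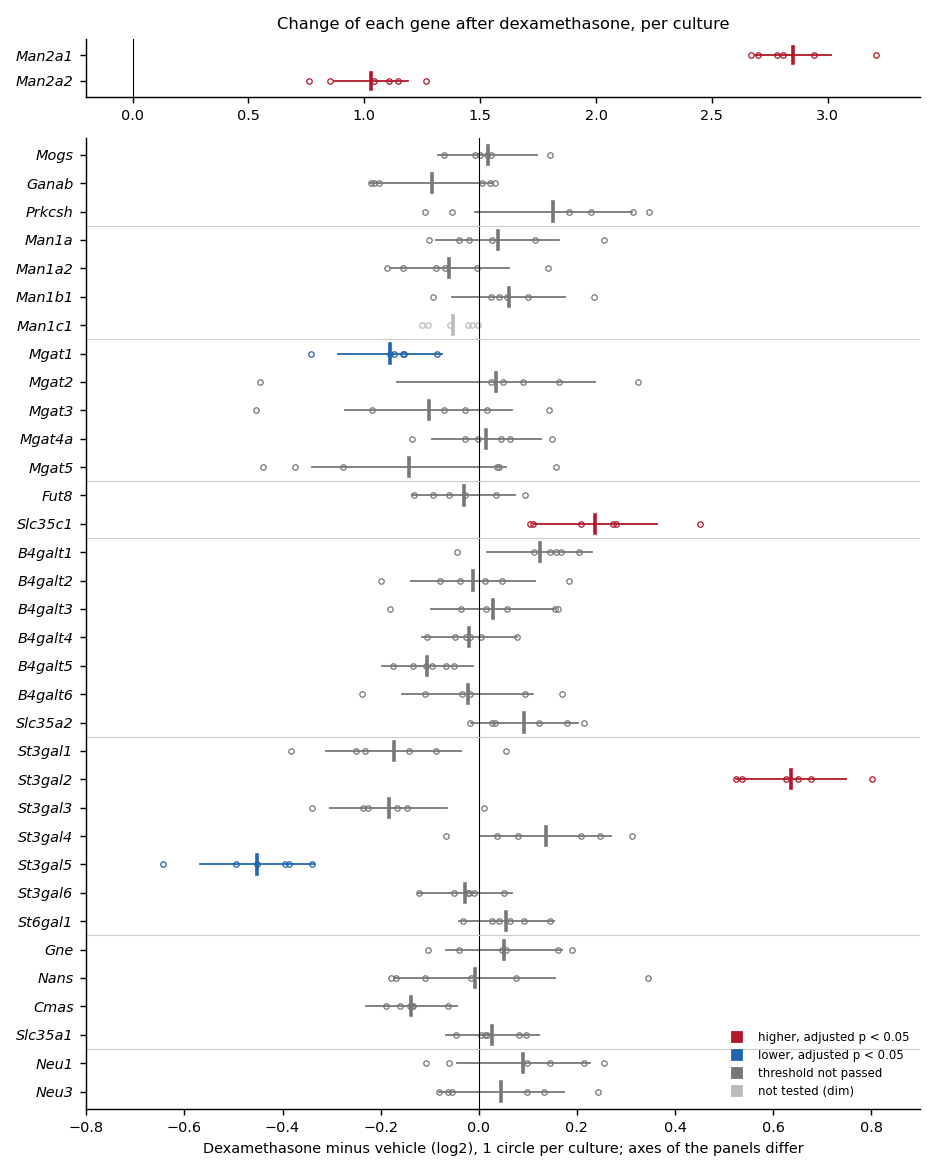
Change of each measured gene (dexamethasone minus vehicle, log2), with 1 circle per culture, a bar at the mean and a line for the 95% confidence interval; the upper panel has a wider axis. Man2a1 lies between 2.67 and 3.21 in the 6 cultures and Man2a2 between 0.76 and 1.27, while 29 of the 35 tested genes did not pass the threshold.

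The scale and its floor bear on every level given here. Values are the authors' log2 array values, and a fold is a fold on that scale. The array's negative control probe sets, which match no mouse transcript by design, had medians between 6.15 and 6.39 on the 12 arrays, called the control median here. Their 95th percentiles were 9.98 to 10.39, so lying above the control median does not by itself mark a gene as detected. Man2a1 and Man2a2 in vehicle, at 8.86 and 9.93, and St3gal2, St3gal5, Mgat1 and Slc35c1 in both treatments lay under those percentiles. Of the 36 members 28 lay above the control median on all 12 arrays. Man1c1, Mgat3, B4galt2, B4galt4, B4galt6 and St6gal1 lay below it on all 12, and B4galt5 and Neu3 each fell below it on 2 of 6 dexamethasone arrays and on no vehicle array. For those dim genes a change in transcript level may not show. In whole cultures, fewer cells of a type and less RNA per cell cannot be told apart.

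The glucocorticoid itself was active by its known targets. Tsc22d3 rose by 2.48, Fkbp5 by 2.37 and Per1 by 1.24, each with an adjusted p of at most 1.32e-05. Markers of other cells moved too. Past the threshold 7.39% of all genes tested were higher and 4.56% lower, the shares to set beside the counts below. The log2 of the summed neutrophil marker values was 10.75 to 13.89 in dexamethasone (median 13.72) and 11.89 to 14.56 in vehicle (median 13.99), lower in 6 of 6 cultures, and of 13 neutrophil markers tested 4 fell and 2 rose. The neutrophil sum followed S100a8 and S100a9, far brighter than the others, at 11.8 and 11.8 in dexamethasone and 12.4 and 12.5 in vehicle. Elane and Mmp9 of that list of 14 lay under the control median on every array. Ltf, which fell, lay under it on 6 dexamethasone and 4 vehicle arrays, and Lcn2, which rose, on 5 and 6. The mast cell and basophil sum was 9.92 to 10.24 in dexamethasone and 9.64 to 9.88 in vehicle, higher in 6 of 6 cultures. Of 9 of these markers tested Cpa3 and Kit rose and Mcpt8 fell, and 5 of 10 measured were under the control median on every array. The erythroid sum, 13.36 to 13.78 in dexamethasone and 14.18 to 14.39 in vehicle, followed the transferrin receptor Tfrc, which fell by 0.65; 3 of the other 5 measured erythroid markers were under the control median on every array. Of 13 monocyte and macrophage markers tested Ccr2 fell and 7 were under the control median on every array, with a sum of 17.42 to 17.62 in dexamethasone and 17.29 to 17.57 in vehicle. That sum followed Lyz2, at 17.52 in dexamethasone and 17.46 in vehicle. The next brightest of these markers, Ly6c2, was at 8.5 in dexamethasone and 8.7 in vehicle. Of 10 lymphocyte markers tested 0 passed by limma, with 3 at an unadjusted p under 0.05, beside 26.7% of all genes tested. Of 11 measured 8 were under the control median on every array, with a sum of 9.10 to 9.24 in dexamethasone and 9.07 to 9.27 in vehicle. The part of these cells in the members' changes was not tested. Culture 2 had the lowest neutrophil sum in both treatments, 10.75 in dexamethasone and 11.89 in vehicle, and without it the changes were 2.78 for Man2a1, 0.98 for Man2a2, 0.60 for St3gal2 and -0.47 for St3gal5. Leaving it out keeps the cultures with higher neutrophil sums, so these values do not test the part of those cells.

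The first trimming step, removal of glucose in the endoplasmic reticulum, had 0 of 3 members past the threshold by limma, and 0 of 3 at an unadjusted p under 0.05, which 26.7% of all genes tested had. Mogs, which removes the outermost glucose, averaged 6.58 ± 0.10 in dexamethasone and 6.56 ± 0.06 in vehicle (log2, SD, n = 6 each). Ganab, the catalytic subunit of glucosidase II, averaged 9.77 ± 0.09 in dexamethasone and 9.87 ± 0.14 in vehicle, a difference of -0.10 (95% interval -0.22 to 0.03). Prkcsh, its regulatory subunit, averaged 11.14 ± 0.11 in dexamethasone and 10.99 ± 0.15 in vehicle, a difference of 0.15 (-0.01 to 0.31). The cultures disagreed on the sign for each of these genes, with 4, 3 and 4 of 6 higher.

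The class I mannosidases, which cut the chain down before branching, had 0 of 3 tested members past the threshold by limma. At an unadjusted p under 0.05 there were 0 of 3, beside 26.7% of all genes tested. Man1a, a Golgi enzyme, ranged from 12.63 to 13.13 in dexamethasone and from 12.67 to 12.97 in vehicle, and its difference was 0.04 (-0.09 to 0.16). The other Golgi enzyme tested, Man1a2, differed by -0.06 (-0.18 to 0.06), and Man1b1, which acts in the endoplasmic reticulum and quality control, by 0.06 (-0.05 to 0.18). Man1c1 averaged 4.72 ± 0.04 in dexamethasone and 4.78 ± 0.04 in vehicle.

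The step that changed most was the next one, Golgi alpha-mannosidase II. These enzymes remove mannose after Mgat1 has added the first N-acetylglucosamine, which turns a hybrid chain into a substrate for Mgat2 and so for complex N-glycans. Man2a1 had a lowest value of 11.62, a median of 11.74 and a highest of 11.76 on the dexamethasone arrays, against 8.55, 8.90 and 9.05 on the vehicle arrays. The groups lay far apart, and the dexamethasone arrays lay closer together than the vehicle arrays. The difference was 2.85 (SE 0.07, 95% interval 2.69 to 3.02), a 7.21-fold rise seen in 6 of 6 cultures with an adjusted p of 7.49e-08. It ranked 10 among all rises. Its SD was 0.07 in dexamethasone and 0.17 in vehicle (n = 6 each), a comparison of spreads that was not tested. The largest change, 3.21, was that of culture 2, whose vehicle array had the lowest Man2a1 value.

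Man2a2, the paralogue also called alpha-mannosidase IIx, had a lowest value of 10.62, a median of 11.03 and a highest of 11.15 in dexamethasone, against 9.77, 9.94 and 10.10 in vehicle. Again no dexamethasone array overlapped the vehicle arrays. The difference was 1.03 (SE 0.07, 0.87 to 1.19), a 2.04-fold rise in 6 of 6 cultures with an adjusted p of 3.25e-05, and it ranked 96 among rises. Culture 6 had the smallest change, 0.76, and culture 2 the largest, 1.27. Both genes kept their call under all 16 other settings tried, with changes of 2.78 to 2.89 for Man2a1 and 0.97 to 1.08 for Man2a2.

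The promoter of Man2a1 is shown because this gene changed most, that of St3gal5 because it changed in the opposite direction, and a window of Mgat1 because it held the letters AGAACA, which the windows of Man2a1, Slc35c1 and St3gal5 did not. The sequences are RefSeq's for GRCm38.p6, from 250 bases before to 50 after the gene start, 5′ to 3′ on the gene's strand, which is + for all of them. They lie at chr17:64601399-64601698 (Man2a1), chr6:72097358-72097657 (St3gal5) and chr11:49247227-49247526 (Mgat1, 1 of its 3 annotated starts). Capitals mark the GC box GGGCGG in Man2a1, the CCAAT box in St3gal5 and AGAACA in Mgat1, each on either strand.
Man2a1: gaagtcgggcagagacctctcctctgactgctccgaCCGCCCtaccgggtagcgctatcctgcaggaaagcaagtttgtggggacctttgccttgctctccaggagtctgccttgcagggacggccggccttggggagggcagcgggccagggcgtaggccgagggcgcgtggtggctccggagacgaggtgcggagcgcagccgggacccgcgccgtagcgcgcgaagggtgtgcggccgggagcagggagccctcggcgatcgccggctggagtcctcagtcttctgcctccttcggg
St3gal5: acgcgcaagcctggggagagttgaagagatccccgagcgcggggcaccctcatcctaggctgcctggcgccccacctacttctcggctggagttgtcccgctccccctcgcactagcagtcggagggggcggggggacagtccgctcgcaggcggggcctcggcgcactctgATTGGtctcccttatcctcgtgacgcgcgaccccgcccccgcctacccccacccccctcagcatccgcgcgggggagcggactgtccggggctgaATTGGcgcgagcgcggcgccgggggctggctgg
Mgat1: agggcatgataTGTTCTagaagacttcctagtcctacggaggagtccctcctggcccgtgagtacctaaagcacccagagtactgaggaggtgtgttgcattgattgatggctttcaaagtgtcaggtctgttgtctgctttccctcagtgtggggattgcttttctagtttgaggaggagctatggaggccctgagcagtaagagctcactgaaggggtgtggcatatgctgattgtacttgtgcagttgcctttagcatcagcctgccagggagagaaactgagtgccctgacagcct
Of the 37 listed genes 29 matched the promoter table, with 40 windows; Man2a2 and St3gal2, which rose, and Man1a2, Mgat3, Mgat4b, B4galt6, St3gal1 and Nans did not match and were not searched. The full glucocorticoid response element, searched as AGAACA, 3 bases of any kind and TGTTCT, the palindrome the receptor binds as a dimer, was in 0 of the 40 windows and in 0.009% of all 32851. Its 5′ part alone, AGAACA, was in 17.5% of the members' windows and 19.0% of all windows. Searched on both strands, CCAAT was in 40.0% of members' windows and 37.4% of all, and GGGCGG in 72.5% of members' windows and 35.7% of all. The members' windows were also richer in G and C, with a median of 61.5% against 52.7% of all windows; the part of this composition in the GC box share was not tested. No motif searched here overlaps another in its letters except that the full element contains AGAACA.

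**Figure D2:**
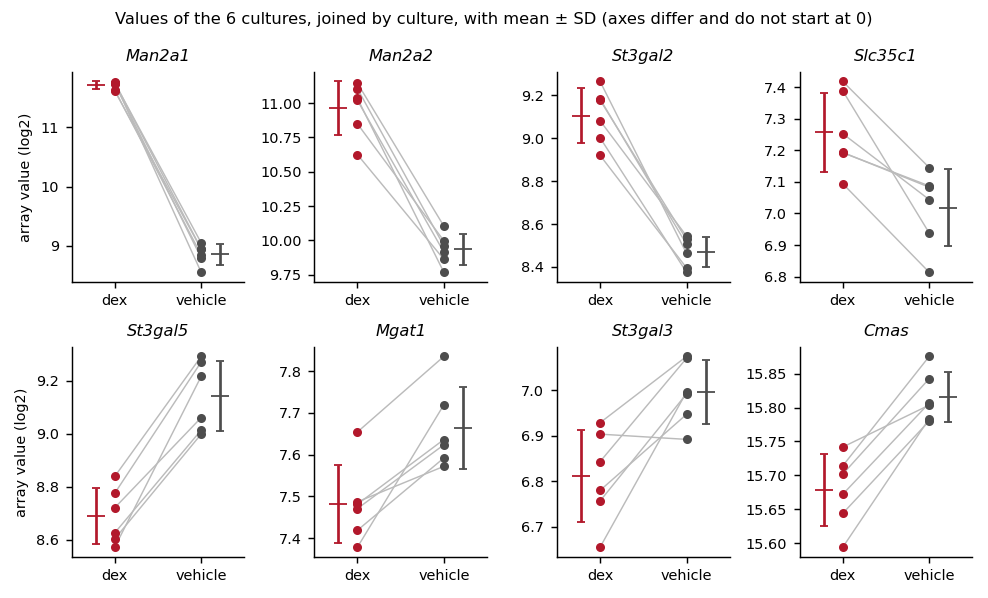
Array values (log2) of 8 genes in dexamethasone (left, red) and vehicle (right, grey), with a line joining the arrays of a culture and the mean ± SD of 6 cultures beside the points; each axis has its own range. For Man2a1, Man2a2, St3gal2, St3gal5 and Cmas the dexamethasone and vehicle arrays do not overlap.

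The branching enzymes, which set how many antennae an N-glycan carries, were lower or not past the threshold. Mgat1, which adds the first antenna's sugar and whose product the mannosidases II need, had a lowest value of 7.38, a median of 7.48 and a highest of 7.65 in dexamethasone, against 7.57, 7.63 and 7.84 in vehicle. The groups overlapped, although each culture was lower in dexamethasone. It fell by 0.18 (SE 0.05, -0.29 to -0.08), which made vehicle 1.13-fold higher, with an adjusted p of 0.0381. That call rests on small margins: it was kept under 6 of 16 other settings, without any 1 of the 6 cultures its adjusted p was 0.0502 to 0.0940, and with culture left out of the model it was 0.0675. It was also lost after centring (0.0949), with no filter on dim genes (0.0517) and with all probe sets fitted (0.145).

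Mgat2, which starts the opposite antenna, differed by 0.03 (-0.17 to 0.24), with 5 of 6 cultures higher and culture 3 lower by 0.45. Mgat4a and Mgat5, which add further antennae, differed by 0.02 (-0.10 to 0.13) and -0.14 (-0.34 to 0.05). Mgat5 had another probe set, with a difference of -0.02 against -0.14 for the brighter one used here. Mgat3, which adds the bisecting sugar that blocks further branching, averaged 4.80 ± 0.09 in dexamethasone and 4.90 ± 0.15 in vehicle, below the negative control median.

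Fucose on the innermost sugar needs the transferase Fut8 and GDP-fucose, carried into the Golgi by Slc35c1. Fut8 averaged 11.07 ± 0.07 in dexamethasone and 11.10 ± 0.06 in vehicle, and its difference was -0.03 (-0.14 to 0.07). Slc35c1 had a lowest value of 7.09, a median of 7.22 and a highest of 7.42 in dexamethasone, against 6.81, 7.06 and 7.15 in vehicle. The groups overlapped, and each culture was higher in dexamethasone. It rose by 0.24 (SE 0.06, 0.11 to 0.36), a 1.18-fold change with an adjusted p of 0.0253. The call was kept under 10 of 16 other settings. It ended after quantile normalization, with an adjusted p of 0.0716, with all probe sets fitted (0.106), and without culture 2, 3, 4 or 5, with adjusted p of 0.0684, 0.0620, 0.0681 and 0.0651.

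Of the 7 genes of galactose addition tested, 0 passed the threshold by limma, with 2 of 7 at an unadjusted p under 0.05, a share near the 26.7% of all genes. B4galt1, the main galactosyltransferase of N-glycans, averaged 14.67 ± 0.15 in dexamethasone and 14.55 ± 0.12 in vehicle, a difference of 0.12 (0.02 to 0.23) with an adjusted p of 0.131 and 5 of 6 cultures higher. B4galt5, which makes lactosylceramide, averaged 6.29 ± 0.05 in dexamethasone and 6.39 ± 0.06 in vehicle, a difference of -0.10 (-0.20 to -0.01) with an adjusted p of 0.142 and 6 of 6 cultures lower. The other family members were B4galt2 at -0.01, B4galt3 at 0.03, B4galt4 at -0.02 and B4galt6 at -0.02, of which B4galt3 alone was above the negative control median. Slc35a2, which carries UDP-galactose into the Golgi, differed by 0.09 (-0.02 to 0.20).

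Sialic acid transfer was the step whose members past the threshold went in opposite directions. Of 7 tested, 1 rose and 1 fell by limma, where 7.39% of all genes tested rose and 4.56% fell. At an unadjusted p under 0.05 there were 2 higher and 3 lower of the 7, beside 26.7% of all genes in either direction. St3gal2, which caps galactose on glycolipids and O-glycans, had a lowest value of 8.92, a median of 9.13 and a highest of 9.26 in dexamethasone, against 8.38, 8.48 and 8.54 in vehicle. It rose by 0.64 (SE 0.05, 0.52 to 0.75), a 1.55-fold change in 6 of 6 cultures with an adjusted p of 7.18e-05. St3gal5, which makes the ganglioside GM3 from lactosylceramide, had a lowest value of 8.57, a median of 8.67 and a highest of 8.84 in dexamethasone, against 8.999, 9.14 and 9.29 in vehicle. It fell by 0.45 (SE 0.05, -0.57 to -0.34), which made vehicle 1.37-fold higher, in 6 of 6 cultures with an adjusted p of 0.000591. In neither gene did the groups overlap, and both calls were kept under all 16 other settings. Neither enzyme is known mainly for N-glycans.

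The sialyltransferases that cap N-glycans did not pass by limma after adjustment, although St3gal3 and St3gal4 had an unadjusted p under 0.05. St3gal4, whose loss lowers platelet counts in mice, had a lowest value of 8.29, a median of 8.51 and a highest of 8.58 in dexamethasone, against 8.23, 8.29 and 8.50 in vehicle, a difference of 0.14 (0.00 to 0.27) with an adjusted p of 0.178. St3gal6 differed by -0.03 (-0.12 to 0.07). St3gal3 averaged 6.81 ± 0.10 in dexamethasone and 6.995 ± 0.07 in vehicle, a difference of -0.18 (-0.30 to -0.06) seen in 5 of 6 cultures (adjusted p = 0.0573). Its call differed between settings, past the threshold under 6 of 16. St3gal1, the O-glycan enzyme, averaged 12.81 ± 0.17 in dexamethasone and 12.98 ± 0.09 in vehicle, a difference of -0.17 (-0.31 to -0.04) with an adjusted p of 0.104; under 1 of 16 other settings, quantile normalization, it passed (adjusted p = 0.0384). St6gal1, which makes the other common linkage on N-glycans, was at 4.94 ± 0.05 in dexamethasone and 4.88 ± 0.05 in vehicle, below the negative control median.

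Related enzymes were compared by the difference between their changes within a culture, since levels of different probe sets cannot be set against each other. Of 11 pairs, 5 had a difference of the same sign in 6 of 6 cultures. Man2a1 changed by 1.82 more than Man2a2 (SD 0.15, n = 6, 1.63 to 2.02). St3gal1 changed by -0.81 relative to St3gal2 (SD 0.09), St3gal5 by -0.42 relative to St3gal6 (SD 0.09), St3gal3 by -0.32 relative to St3gal4 (SD 0.09) and Man1a by 0.10 relative to Man1a2 (SD 0.05). Each of these 5 gave p = 0.03125 in a two-sided exact permutation test that flips the sign of each culture's difference, the smallest p that 6 cultures allow. Adjusted over the 11 pairs it was 0.0688, so 0 of 11 pairs passed the threshold and 5 of 11 had an unadjusted p under it. With only 5 pairs at the smallest possible p, no pair could pass after adjustment. The count of 0 therefore does not bear on whether related enzymes changed equally. The other 6 pairs had cultures on both sides of 0, and Mgat4a could not be set against Mgat4b.

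**Figure D3:**
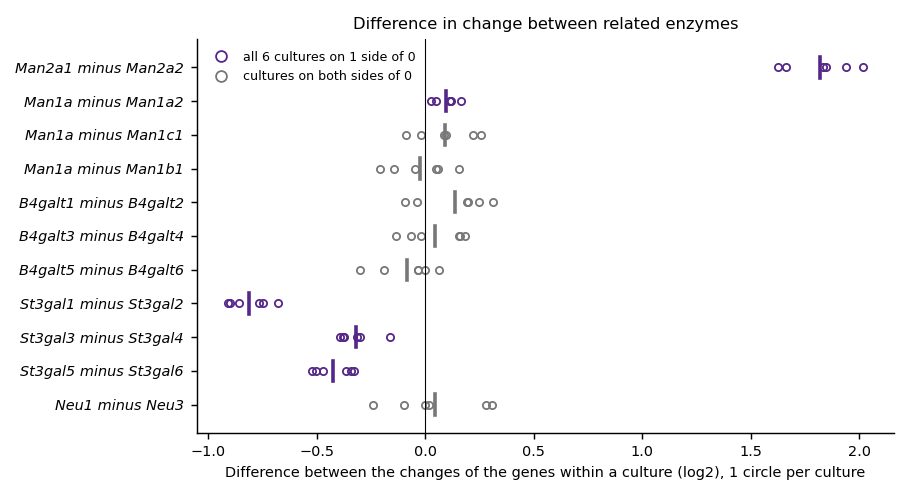
Difference between the changes of paired genes within a culture (log2; change of the gene named first minus that of the other), with 1 circle per culture and a bar at the mean of 6. The Man2a1 to Man2a2 difference lies between 1.63 and 2.02, and the St3gal1 to St3gal2 difference between -0.91 and -0.68.

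Of the 4 genes that supply sialic acid 0 passed by limma, and 1, Cmas, had an unadjusted p under 0.05, again near the 26.7% of all genes. Gne, the enzyme that starts its synthesis, averaged 8.02 ± 0.06 in dexamethasone and 7.97 ± 0.10 in vehicle, a difference of 0.05 (-0.07 to 0.17). Nans, which makes the sialic acid phosphate, differed by -0.01 (-0.17 to 0.16), with single cultures between -0.18 and 0.34. Slc35a1, which carries CMP-sialic acid into the Golgi, differed by 0.03 (-0.07 to 0.12). Cmas, which activates sialic acid to CMP-sialic acid, had a lowest value of 15.59, a median of 15.69 and a highest of 15.74 in dexamethasone, against 15.78, 15.81 and 15.88 in vehicle. The groups did not overlap, and the difference of -0.14 (-0.23 to -0.05) had an adjusted p of 0.0630, past the threshold under 6 of 16 other settings. Arrays did not overlap between treatments for 5 of 35 members tested, 14.3%, beside 6.73% of all genes tested. Of these members 3 were higher (4.10% of all genes) and 2 lower (2.63%). The shares were not matched for brightness. Of the 24265 genes tested 9840 lay below the control median on every array, beside 5 of 35 members. Cultures had the same sign for 8 members, 22.9%, beside 19.6% of all genes.

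Of the 2 sialidases, which remove the cap, 0 passed by limma and 0 had an unadjusted p under 0.05, beside 26.7% of all genes. Neu1, the lysosomal enzyme, averaged 6.74 ± 0.11 in dexamethasone and 6.65 ± 0.07 in vehicle, a difference of 0.09 (-0.04 to 0.23). Neu3, a plasma membrane enzyme that prefers gangliosides, differed by 0.05 (-0.08 to 0.17). Of the 29 members that did not pass, 23 had a 95% interval wholly within 0.25 log2 units of 0. The other 6 were Prkcsh, Mgat3, Mgat5, St3gal1, St3gal3 and St3gal4, for which a change somewhat beyond that size lies within the interval. Among the 23 are B4galt2, B4galt4, B4galt6 and St6gal1, below the control median on every array. For these a narrow interval does not bound a change in transcript level.

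Genes around the listed ones were counted in 8 lists with 138 genes tested, of which 14 rose, 10 fell and 114 did not pass, beside 7.39% higher and 4.56% lower among all genes. Their median change was 0.001. In the steps before the protein is glycosylated, Dpagt1, which starts the lipid-linked chain, rose by 0.52 (SE 0.05), the only one of 20 assembly genes to pass. Of 12 oligosaccharyltransferase subunits, which transfer the chain to protein, Stt3a fell by 0.26, Magt1 fell by 0.22 and Krtcap2 rose by 0.29. Among 14 genes of the calnexin cycle and cargo lectins, the cargo receptor Lman1 and the chaperone Calr fell by 0.26 and 0.20, and the degradation lectin Os9 and the mannosidase Manea rose by 0.26 and 0.18.

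Of 26 genes of sugar nucleotides 2 rose and 2 fell, where 7.39% of all genes tested rose and 4.56% fell. Gfpt1, the first enzyme of the hexosamine route to UDP-N-acetylglucosamine, fell by 0.41 (SE 0.06, adjusted p = 0.00271) and Gnpnat1, also of that route, fell by 0.24 (SE 0.05, adjusted p = 0.0223), each in 6 of 6 cultures. The other tested genes of the route did not pass, with Pgm3 at -0.09, Uap1 at -0.05, Uap1l1 at -0.03 and Gfpt2 at 0.03. Galk2 and the mannose phosphate isomerase Mpi rose by 0.42 and 0.33. Among 9 other branch and mannose phosphate genes B4galt7, which acts on proteoglycan linkers, rose by 0.45 and Gnptg, a subunit of the mannose phosphate tagging enzyme, rose by 0.24.

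Of 21 O-glycan and glycolipid genes, C1galt1, which makes the core O-glycan, fell by 0.30 (SE 0.05), while Gcnt1, which branches it, rose by 0.39 (SE 0.05), and B4galnt1, a ganglioside enzyme acting on the product of St3gal5, rose by 0.42 (SE 0.07). Galnt7, which acts at the start of O-glycans, rose by 0.22. Of 17 breakdown genes the lysosomal fucosidase Fuca1 rose by 0.44 (SE 0.06) and the sialic acid esterase Siae by 0.21. By limma 0 fell, with 2 lower at an unadjusted p under 0.05, beside 2855 of the 24265 genes tested. Of 19 Golgi structure genes Cog5 rose by 0.48 (SE 0.06), while Golga3, Cog6 and Gosr1 fell by 0.24, 0.22 and 0.17. For each of these lists the share among all genes tested was 7.39% higher and 4.56% lower.

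**Figure D4:**
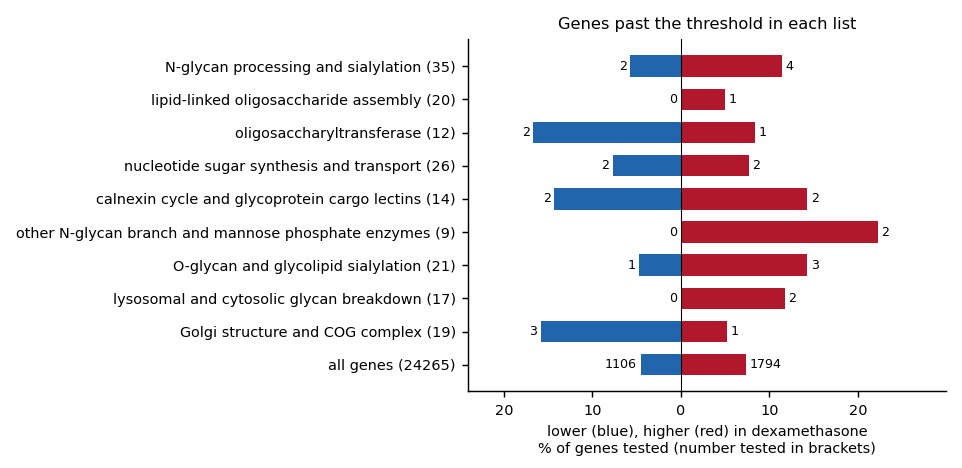
Share of tested genes past the threshold in each list (percent; red to the right higher, blue to the left lower in dexamethasone), with the number of such genes at each bar and the number tested in brackets. The N-glycan processing and sialylation list has 4 higher and 2 lower of 35, and over all 24265 genes 1794 were higher and 1106 lower.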

How the data were processed

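RNA was measured on 12 1-colour arrays, 6 per treatment. Per the labels' protocols, 50 ng of RNA was amplified and labelled with biotin. The values, deposited by the authors for 72688 probe sets, are on a log2 scale judging by their range; no source used here gives background correction, normalization, summarization or build. Array medians lay within 0.10 of each other and upper quartiles within 0.16, so values were used as deposited. The number of arrays limits the precision. Probe sets with 1 gene symbol (30604; 2146 had several) were reduced to the brightest per gene, and 827 symbols were updated through RefSeq gene numbers (GRCm38.p6). A gene was tested if above its array's 25th percentile on at least 6 arrays. Genes were fitted with limma 3.58.1 under R 4.3.3 (lmFit, eBayes), two-sided, with culture as a block and Benjamini-Hochberg adjustment over all genes tested; it was tested on simulated data. The pairing comes from the treatment protocol, which divides each culture. Deviations of same-numbered arrays correlated between 0.05 and 0.25 (mean 0.16), against a mean of -0.03 for other pairs. For 3 of 6 dexamethasone arrays the same-numbered vehicle array was the one that correlated best. Replicates are cultures. Members could all be named; of each other list, up to 4 genes past the threshold with the largest change, plus set markers and targets. The members and all lists were chosen with earlier results of these data known. Alternatives covered the block, scaling, filter, moderation, probe sets and single cultures.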

Additional observations from a re-analysis of the deposited data

Results flagged for a closer look

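Within each treatment, 7 of the 72 member groups of 6 arrays had 1 array far from the others by Dixon's ratio (gap to the nearest array over the whole range). Chance flags about 1 in 20 groups, or 3.6 here. In dexamethasone, culture 6 was lowest for Ganab at 9.60, next to 9.76. Culture 3 was lowest for Mgat2 at 8.13, next to 8.46, and highest for B4galt3 at 7.36, next to 7.17. Culture 1 was lowest for Man1c1 at 4.64 and for B4galt6 at 5.03, both below the negative control median. In vehicle, culture 6 was highest for Mgat3 at 5.19, also below it, and culture 3 was highest for St3gal1 at 13.16, next to 12.99. Without culture 3 the change of Mgat2 was 0.13 in place of 0.03. With all cultures 6 of these 7 genes did not pass the threshold, and Man1c1 was not tested.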

How the results depend on the processing

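Man2a1, Man2a2, St3gal2 and St3gal5 kept their direction and stayed past the threshold under all 16 alternatives, with changes of 2.78 to 2.89, 0.97 to 1.08, 0.58 to 0.66 and -0.51 to -0.41. Mgat1 and Slc35c1 also kept their direction under all 16, with changes of -0.23 to -0.15 and 0.20 to 0.26, but not always their call. With no replicate block, 4 members were higher and 3 lower, since Mgat1 lost its call while St3gal3 and Cmas gained one, and 1534 and 918 of all genes passed. Members lower numbered 2 as reported, 4 with the block as a random effect, 5 after quantile normalization, 1 after centring arrays on their medians, 1 with no filter on dim genes, 4 with a filter at the 50th percentile, 4 with one at the negative control median and 1 with all probe sets fitted. Over all genes the count lower was 1738 after quantile normalization, 726 after centring and 408 (807 higher) with all probe sets. The related lists had 19, 5 and 2 lower under these 3 settings, and 9 higher under the last. Higher genes made up 61.9% of calls on the deposited scale, 44.9% under quantile normalization and 70.3% with centring, and higher members 66.7%, 37.5% and 80.0%. Leaving out 1 culture at a time gave 3 to 4 members higher and 1 to 2 lower, 1164 to 1520 genes higher and 712 to 853 lower, and 9 to 11 related genes higher and 5 to 8 lower, from fewer arrays; the counts moved by over 1.5 times without culture 3 (1164 higher, 714 lower), 4 (1178 higher) and 6 (712 lower), those of related genes without culture 1, 5 or 6 (6, 5 and 5 lower) and 2, 3 or 4 (9 higher each), and members lower without each culture but 4 (1 lower). With 5 cultures the smallest exact p is 0.0625, so the paralogue test cannot pass there. Centring and averaging probe sets cannot change the paired differences. After quantile normalization 0 pairs passed, with the same limit set by the smallest p that 6 cultures allow. The cause of each difference was not tested. Dim genes, 6 of 36 members under the control median on every array, limit what can be seen.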
